A study of Mus musculus with 6 samples.

Results

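Binding of SALL4, a zinc-finger protein with a preference for AT-rich DNA, was examined at 10 genes that encode Polycomb proteins in mouse embryonic stem cells. The genes are the 6 PRC2 genes Ezh1, Ezh2, Eed, Suz12, Jarid2 and Mtf2, and the 4 PRC1 genes Rnf2, Ring1, Bmi1 and Cbx7. They were chosen by function, with earlier results of these data known, so their comparison with other genes is a description. Each was given a window of its GRCm38 gene body plus 20 kb on each side. All SALL4 intervals lying wholly inside a window were taken, with overlapping lines of 1 list merged. This gave 164 of the 55058 intervals of wild-type replicate 1, 140 of the 48295 of wild-type replicate 2, and 0 of the 34 and 0 of the 39 of knockout replicates 1 and 2.

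SALL4 was mapped by CUT&RUN. Here cells are made permeable with digitonin, an antibody recruits a nuclease to the bound protein, and the DNA fragments released nearby are sequenced. The wild-type group is 1 line of genotype Sall4F/F, whose Sall4 gene carries recombination sites but is intact, and the knockout group is 1 line of genotype Sall4-/-. Both were grown in 2i + LIF medium, and each gave 2 SALL4 libraries, made with the antibody clone EE-30. The 2 IgG libraries, 1 per line, carry no list used here. The labels do not say that replicates were separate cultures, so the spread between them may be technical, and with 1 line per genotype Sall4 loss cannot be told apart from other differences between the lines.

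Polycomb proteins keep developmental genes silent. PRC2 places methyl groups on a lysine of histone H3, and PRC1 attaches ubiquitin to histone H2A and compacts chromatin. EZH1 and EZH2 are alternative catalytic subunits of PRC2, SUZ12 and EED form its core with them, and JARID2 and MTF2 are accessory subunits that help to bring it to its targets. In PRC1, RNF2 and RING1 are alternative ubiquitin ligases, BMI1 is a partner that stimulates them, and CBX7 reads the methyl mark that PRC2 leaves. Embryonic stem cells need these complexes less for self-renewal than for orderly differentiation.

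The upstream promoter sequences are shown for the gene whose start is covered by SALL4, for both annotated starts of the gene with the highest density of regions, and for Ring1 and Ezh1, which had the lowest densities. They are from RefSeq (GRCm38.p6), run 5′ to 3′ on the strand of the gene, and end at the base before the start. Capitals mark the bases that lie inside a region called in both wild-type lists, and a sequence in lower case alone has none. Mtf2 was added after its values were seen.
Jarid2, chr13:44730524-44730773, plus strand: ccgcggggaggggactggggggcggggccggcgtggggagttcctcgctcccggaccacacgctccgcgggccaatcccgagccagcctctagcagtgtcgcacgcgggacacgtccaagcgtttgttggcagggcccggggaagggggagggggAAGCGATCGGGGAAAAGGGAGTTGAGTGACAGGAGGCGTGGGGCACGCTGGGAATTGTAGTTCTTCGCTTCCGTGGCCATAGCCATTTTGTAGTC
Mtf2 first start, chr5:108065424-108065673, plus strand: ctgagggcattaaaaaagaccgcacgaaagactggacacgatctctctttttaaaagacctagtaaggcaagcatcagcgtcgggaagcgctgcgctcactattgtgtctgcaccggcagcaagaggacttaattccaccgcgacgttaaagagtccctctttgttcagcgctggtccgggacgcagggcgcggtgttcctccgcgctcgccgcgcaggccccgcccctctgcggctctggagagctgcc
Mtf2 second start, chr5:108077915-108078164, plus strand: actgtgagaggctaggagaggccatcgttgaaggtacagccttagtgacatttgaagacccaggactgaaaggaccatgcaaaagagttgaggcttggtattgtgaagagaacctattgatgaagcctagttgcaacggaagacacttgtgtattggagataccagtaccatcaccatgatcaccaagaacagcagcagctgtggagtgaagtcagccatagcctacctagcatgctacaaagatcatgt
Ezh1, chr11:101226464-101226713, minus strand: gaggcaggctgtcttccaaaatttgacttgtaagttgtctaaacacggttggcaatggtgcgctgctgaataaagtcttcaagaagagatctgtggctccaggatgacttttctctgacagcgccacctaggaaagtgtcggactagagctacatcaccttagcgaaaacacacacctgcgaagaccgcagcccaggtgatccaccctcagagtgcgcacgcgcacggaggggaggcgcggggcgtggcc
Ring1, chr17:34024681-34024930, minus strand: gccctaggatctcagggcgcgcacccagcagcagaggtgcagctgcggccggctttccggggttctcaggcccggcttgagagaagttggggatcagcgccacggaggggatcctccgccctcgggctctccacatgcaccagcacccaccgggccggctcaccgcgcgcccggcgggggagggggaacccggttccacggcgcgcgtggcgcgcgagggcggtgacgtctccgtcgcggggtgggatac

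Of these 250 bases, A and T make up 32.8% at Jarid2, 40.8% and 53.2% at the first and second Mtf2 starts, 44.8% at Ezh1 and 26.4% at Ring1. Over the 12 promoter windows that RefSeq gives for the 10 genes (250 bases before to 50 after a start), the A+T share had a median of 35.7%, against 43.7% over the 21263 windows of coding genes. The second Mtf2 window holds 2 CG dinucleotides and the first holds 30, and the members' median was 27 against 13 for coding genes. The AT-rich motif ATATT, searched on both strands (as ATATT and AATAT), was in 0 of the 12 windows and in 22.0% of the windows of coding genes. Coding windows overlapped by a region called in both wild-type lists numbered 723. Their median A+T share was 45.7%, against 43.3% in the rest, and 25.7% against 21.9% held the motif. Only these letters in these windows were examined, and the sequence at the SALL4 summits away from the promoters was not analysed here.

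The peak lists carry no read totals. Fold enrichment and p-value together give the whole number of fragments at a summit, which was obtained for 100% of the lines of each list. The median summit held 9 fragments in each wild-type list, against 12 and 13 in the lists of the knockout. At the Polycomb genes the median summit of either wild-type list held 8 fragments and the weakest interval had 4, so single weak intervals rest on few fragments. The knockout lists hold intervals on X and Y only, with 0 on any autosome.

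SALL4 intervals were present at 9 of the 10 Polycomb genes in wild type and at none in the knockout. Wild-type replicates 1 and 2 had 164 and 140 intervals in the windows, which is 152 ± 16.97 (SD, n = 2), and both knockout lists had 0. The groups did not overlap. The wild-type mean was 50.7 times an assumed floor of 3 intervals per knockout library, and 16.7 times that floor without Jarid2 and Mtf2. The floor is a set value and not a count at these genes. On the scale of log2(number + 1) the difference was 7.25, with a wild-type spread of 0.16 (SD). Permuting the genotypes over the 4 libraries gave p = 0.333 (exact permutation test, two-sided). With 2 libraries against 2 no smaller p can arise, so 0.05 is out of reach. Gene by gene, 9 of the 10 had more intervals in both wild-type lists than in both knockout lists, against 52.8% of the 21887 coding genes. None of the 10 had more in the knockout, against 0.00457% of coding genes. A single interval is enough for this call, so longer windows reach it more easily. The knockout lists end at stronger p-values (weakest −log10 p of 6.61 and 7.12) than the wild-type lists (3.55 and 3.60). At a −log10 p of 8 or more, which lies above all 4 of these limits, the Polycomb windows kept 79 and 68 wild-type intervals. Their mean was 24.5 times the same floor. All 10 genes are autosomal, and the knockout lists hold no autosomal interval, so no setting could give the knockout a count.

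**Figure D1:**
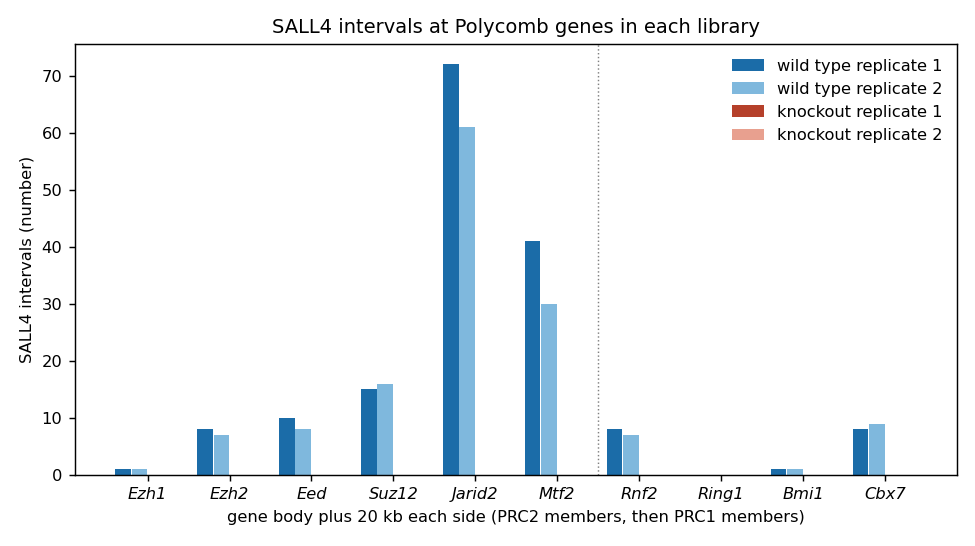
Number of SALL4 intervals (y axis) in the window of each Polycomb gene (x axis), with 1 bar per library. Jarid2 has 72 and 61 intervals in wild-type replicates 1 and 2 and Mtf2 has 41 and 30, Ring1 has 0 in all libraries, and every knockout bar has a height of 0.

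The replicates of wild type were called separately, so a region was kept as reproducible (a consensus region) where intervals of both lists overlapped by at least 1 bp and no knockout interval did. The 10 windows held 104 such regions of 37997 in all. At least 1 was found at 9 of the 10 genes, against 51.1% of coding genes, and at least 5 were found at 7 of the 10, against 10.1% of coding genes. The PRC2 genes held 90 of the 104 regions in 642 kb of window, or 1.40 per 10 kb. By single lists they had 2.29 and 1.92 intervals per 10 kb in replicates 1 and 2. The PRC1 genes held 14 in 260 kb, or 0.538 per 10 kb. Jarid2 and Mtf2 alone held 70 regions, which is 67.3% of all at the 10 genes, and without them the other 4 PRC2 genes had 20 regions, or 0.61 per 10 kb. By single lists these 4 had 1.04 and 0.977 intervals per 10 kb, against 0.653 in both lists at the PRC1 genes. The other 8 genes together had 0.578 regions per 10 kb, against 0.187 over the windows of all coding genes. The median over the 10 genes was 0.786 regions per 10 kb, and the median over coding genes was 0.0495. By replicate 2 alone these medians were 0.961 and 0.123, and by replicate 1 alone 0.978 and 0.153, so the ratio of the medians depended on requiring both lists.

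**Figure D2:**
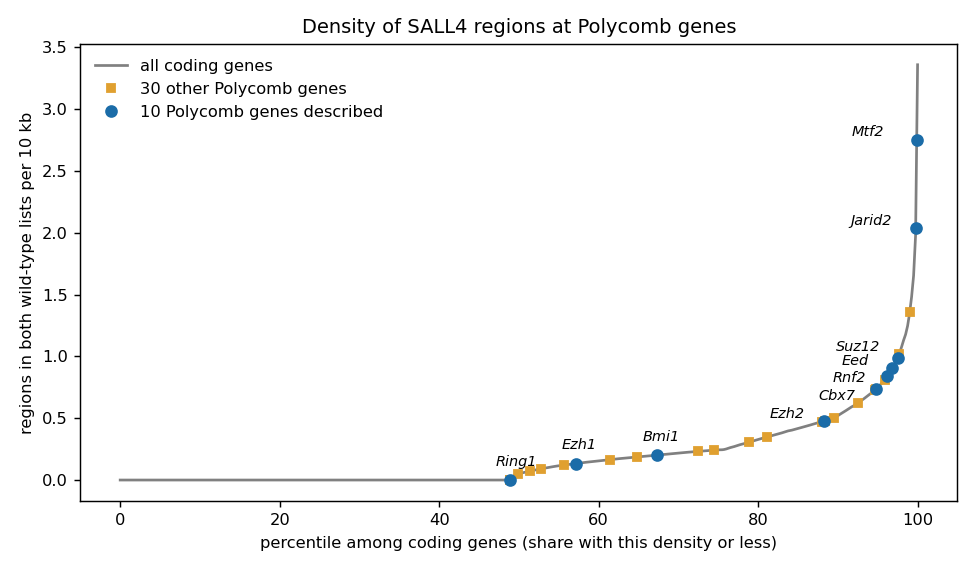
Consensus regions per 10 kb of window (y axis) against the percentile of that density among coding genes (x axis, the share of genes with this density or less), with the grey line for all coding genes, blue circles for the 10 Polycomb genes and orange squares for 30 other Polycomb genes. Mtf2 at 2.75 and Jarid2 at 2.04 regions per 10 kb lie on the steep end of the curve, and Ring1 lies at 0.

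Mtf2, the accessory subunit also called PCL2, had the highest density (gene ID 17765, chromosome 5, 108065660 to 108109219). Its window of 83.6 kb held 41 intervals in wild-type replicate 1, 30 in replicate 2 and 0 in each knockout list. Of these, 23 consensus regions remained, or 2.75 per 10 kb, and 14 of the 21887 coding genes, Mtf2 included, were as dense or denser. By replicate 1 alone (41 regions) there were 2 such genes, and by replicate 2 alone (30 regions) 15. The regions covered 12.8% of the window, with a median spacing of 2.22 kb between neighbouring summits. Inside the gene there were 13 regions, or 2.98 per 10 kb, and the flanks of 20 kb held 10. Farther out, from 20 to 120 kb on both sides, the density was 0.25 per 10 kb. The density there was below that of the window at 8 of the 10 genes, a count made for these genes only. How common this is among coding genes was not tested. The exceptions were Ezh2, with 0.70 per 10 kb against 0.476 in its window, and Ring1, with 0.10 against 0. The last 4 regions of the window lay beside or in Tmed5, the neighbouring gene downstream.

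The strongest Mtf2 region lay inside the gene at chromosome 5, 108076255 to 108077747, 885 bp from the second annotated start, and ended 418 bp before it. Its fold enrichment over the local background was 32.0 in replicate 1 and 15.4 in replicate 2, a mean of 23.7 ± 11.8 (SD, n = 2). This ratio is taken after 1 is added to both fragments and background. The summit pileups were nearly equal, at 62 and 60 fragments, while the local background was 0.968 fragments in replicate 1 and 2.96 in replicate 2, with summits 98 bp apart. The next region, at 108103738 to 108104605 near the 3′ end of the gene, had fold enrichments of 21.3 and 25.2. Both rank high in their lists, yet most Mtf2 regions were weak. The median over its 23 regions was a mean fold enrichment of 5.48, below the 6.84 of all consensus regions, and 6 of the 23 had a −log10 q of at least 10 in both lists. The first promoter, rich in CG dinucleotides as printed above, was not covered, and the nearest region to it lay 603 bp upstream of the start, with its summit 1014 bp away.

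Jarid2, which encodes a DNA-binding accessory subunit of PRC2, had the most intervals of the 10 genes (gene ID 16468, chromosome 13, 44730774 to 44921643). Its window of 231 kb held 72 intervals in wild-type replicate 1, 61 in replicate 2 and 0 in each knockout list. There were 47 consensus regions, or 2.04 per 10 kb, and 52 coding genes were as dense or denser (34 by replicate 1 alone, with 72 regions). The gene itself held 39 of them, at 2.04 per 10 kb, and the flanks of 20 kb held 8. From 20 to 120 kb the density was 1.00 per 10 kb. The regions were spaced by a median of 2.94 kb, with 1 long gap of 44.7 kb that began 164 kb after the start and took in the 3′ end of the gene. A single region followed the gap. It lay 17.8 kb past the gene in Dtnbp1, at 44939261 to 44939693, with fold enrichments of 20.7 and 21.8.

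The strongest Jarid2 region lay 2.12 kb upstream of the start, at 44728082 to 44728919, with fold enrichments of 26.7 and 20.6. A second upstream region, 8.43 kb before the start, had 19.8 and 19.1. Within the gene the strongest lay 21.1 kb after the start, with 21.3 and 15.1. Jarid2 was the one gene of the 10 with a region over its promoter, against 3.87% of coding genes with a promoter window. Of the promoter windows themselves, 1 of the members' 12 was overlapped, against 3.40% of those of coding genes. That region, at 44730679 to 44730791, is the stretch printed in capitals above. It was 113 bp wide and weak, with fold enrichments of 6.58 and 4.71 from pileups of 10 and 7 fragments. The median over the 47 regions was 6.04.

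**Figure D3:**
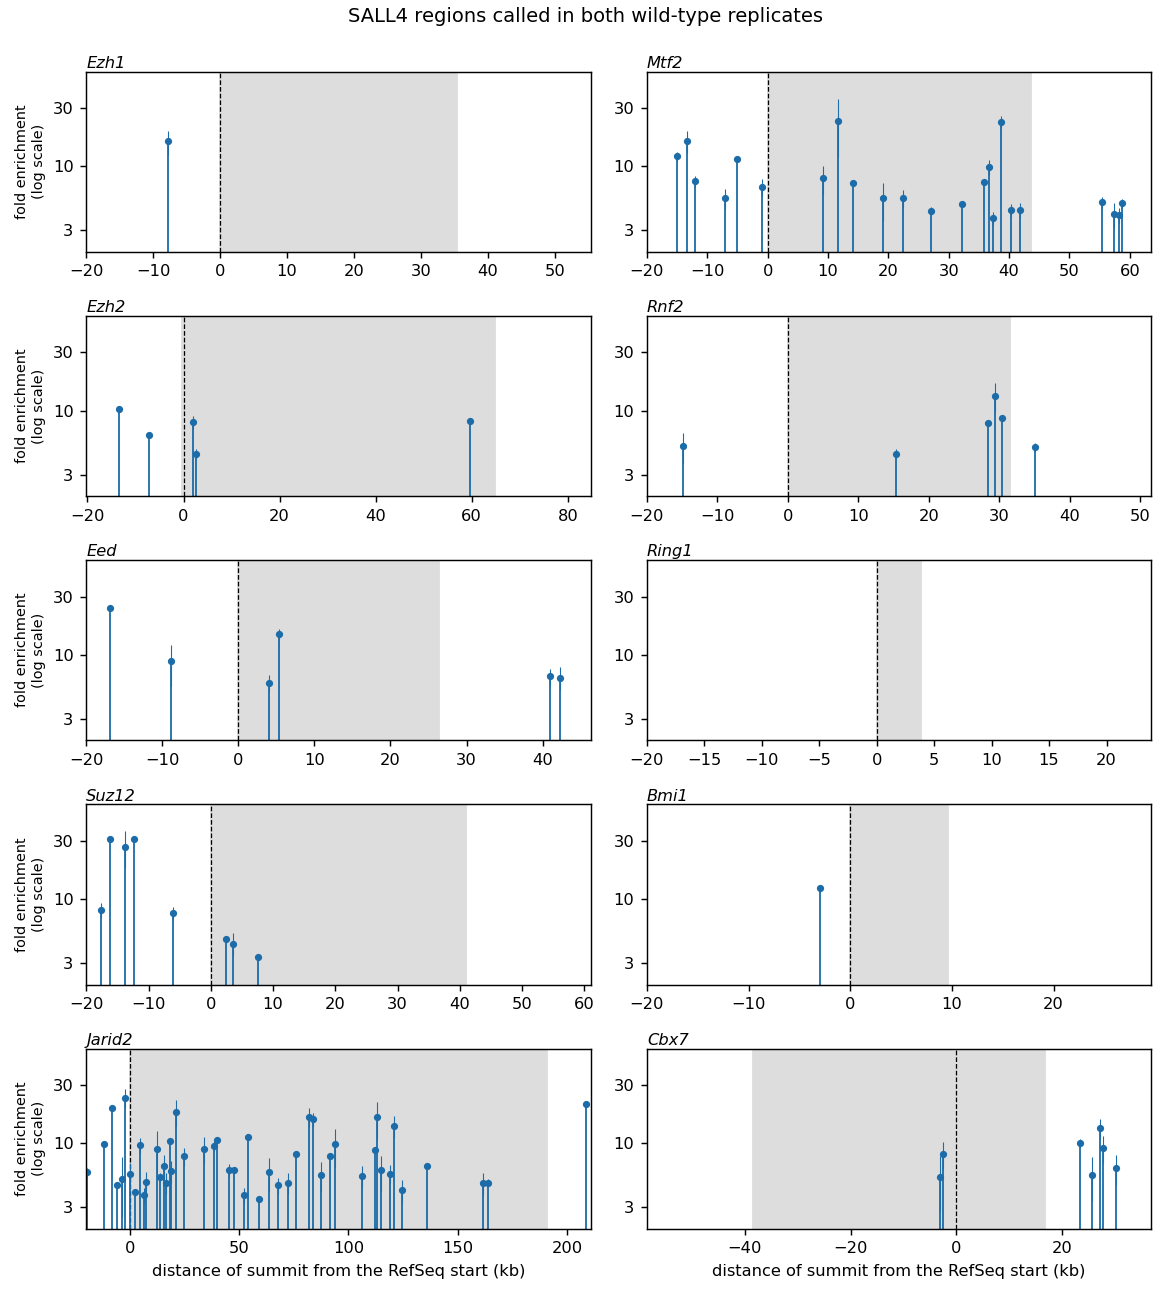
Consensus regions at the 10 Polycomb genes, with the distance of the summit from the annotated start (x axis, kb, in the direction of transcription) and the mean fold enrichment of both wild-type replicates on a log scale (y axis). Error bars are the SD of 2 replicates, thin vertical lines only mark positions, grey shading is the gene body and the dashed line is the start. Regions fill Jarid2 and Mtf2, 3 strong ones stand 12.3 to 16.2 kb before Suz12, and the Ring1 panel is empty.

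Suz12, the scaffold of PRC2, held the strongest regions of the set (gene ID 52615, chromosome 11, 79993106 to 80034123). The lists had 15 and 16 intervals in wild type, against 0 and 0 in the knockout, and 8 were consensus regions (0.987 per 10 kb, 548 coding genes as dense or denser). By replicate 1 alone there were 15 regions and 238 such genes, and by replicate 2 alone 16 regions and 128 genes. Of these, 3 stood together upstream of the gene and had mean fold enrichments of 27.0 to 31.3. The region at 79975983 to 79977727, 16.2 kb before the start, had 31.8 and 30.7 and ranked 253 and 207 in the lists. That at 79980473 to 79981362, 12.3 kb before the start, had 29.98 and 32.7, a mean of 31.3 ± 1.90 (SD, n = 2). The one between them, at 79978938 to 79980257, had 33.4 and 20.6, with summits 662 bp apart, a mean of 27.0 ± 9.04 (SD, n = 2). They overlap no annotated gene, and the long non-coding RNA gene Gm30875 is nearer than Suz12 to each of them. Inside Suz12 the 3 regions were weak, with mean fold enrichments of 3.39 to 4.68. Intervals found in 1 list only numbered 7 and 8, about as many as were shared.

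Eed encodes the PRC2 core subunit that binds the methyl mark (gene ID 13626, chromosome 7, 89954654 to 89980976). It had 10 and 8 intervals in wild type, 0 and 0 in the knockout, and 6 consensus regions (0.905 per 10 kb), against 10 regions by replicate 1 alone. As at Suz12, the strongest lay far upstream. It stood 16.8 kb before the start at 89997479 to 89999048, was 1570 bp wide and had fold enrichments of 25.0 and 23.8. The strongest inside the gene, at 89975537 to 89976110, had 15.9 and 13.8. A further 2 regions lay in Hikeshi, the neighbouring gene downstream.

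The paralogous methyltransferase genes Ezh2 and Ezh1 had fewer. Ezh2 (gene ID 14056, chromosome 6, 47530274 to 47595270) had 8 and 7 intervals in wild type, 0 and 0 in the knockout, and 5 consensus regions (0.476 per 10 kb), against 8 by replicate 1 alone. Its strongest, 13.4 kb upstream at 47608169 to 47608574, had fold enrichments of 10.7 and 10.1. Ezh1 (gene ID 14055, chromosome 11, 101191115 to 101226463) had 1 interval in each wild-type list and 0 in each knockout list. The 2 were the same region, at 101234092 to 101234437, 7.84 kb before the start and outside any annotated gene. Its fold enrichments of 18.6 and 13.5 were above those of the strongest Ezh2 region in both replicates. The Ezh1 start, at the end of the promoter printed above, was 7629 bp from the nearest edge of that region.

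Of the PRC1 genes, Rnf2 and Cbx7 carried nearly all regions. Rnf2, which encodes the ubiquitin ligase RING1B (gene ID 19821, chromosome 1, 151469398 to 151500991), had 8 and 7 intervals in wild type, 0 and 0 in the knockout, and 6 consensus regions (0.838 per 10 kb). Its strongest regions clustered at the 3′ end of the gene. They were led by 151471243 to 151471991, 29.5 kb after the start, with fold enrichments of 15.8 and 10.8. Cbx7 (gene ID 52609, chromosome 15, 79915804 to 79971143) had 8 and 9 intervals in wild type, 0 and 0 in the knockout, and 7 consensus regions (0.734 per 10 kb). Of the 7, 5 lay in Apobec3, the gene downstream, among them the strongest at 79905291 to 79905563, with 15.2 and 11.6. The other two lay inside the RefSeq gene body but upstream of the start in the RefSeq promoter table, by 2.45 and 3.05 kb.

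Bmi1 and Ring1 lay at the low end. Bmi1 (gene ID 12151, chromosome 2, 18677018 to 18686629) had 1 interval in each wild-type list and 0 in each knockout list. They formed 1 region, at 18673759 to 18674290, 2.94 kb before the start and inside the neighbouring gene Commd3, with fold enrichments of 11.7 and 12.9. Ring1, the paralog of Rnf2 (gene ID 19763, chromosome 17, 34020792 to 34024680), had 0 intervals in all 4 lists. Its window of 43.9 kb is the shortest and touches 8 other annotated genes, more than that of any other member. The nearest consensus region was 53125 bp from its start. Binding too weak to be called would not appear in these lists.

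The order of the 10 genes was set against the spread of the replicates by the intervals per 10 kb of each list. Mtf2 had 4.91 and 3.59, Jarid2 had 3.12 and 2.64, and Suz12 had 1.85 and 1.97, so these 3 did not overlap. Eed followed with 1.51 and 1.21. Rnf2 had 1.12 and 0.978, Cbx7 0.839 and 0.944, and Ezh2 0.762 and 0.667. Those last 3 had 7 to 9 intervals in every list, in windows of 71.6, 95.3 and 105 kb, so their order rests on small counts and on the lengths of the windows. Bmi1 with 0.202 and Ezh1 with 0.133 rest on 1 interval per list. Mtf2 and Jarid2 were the densest 2 of the 10 in all 11 alternative settings of window, threshold, overlap and replicate. Mtf2 was first in 10 of them, and Jarid2 was first with flanks of 50 kb. With a −log10 q of at least 10, Mtf2 kept 6 regions and Jarid2 15, and 106 and 141 coding genes were as dense or denser.

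The local background at the summits of Mtf2 and Jarid2 was that of the lists. At both genes its medians were 0.479 and 0.499 fragments in replicates 1 and 2, and over the whole lists they were 0.479 and 0.499. The lowest background in these lists was 0.452 and 0.471, so the medians lie near a floor and could hardly have been lower. The regions at the 10 genes were close in strength to those elsewhere. Their median mean fold enrichment was 6.77 against 6.84 over all consensus regions, and 31.7% against 30.4% had a −log10 q of at least 10 in both lists. Regions of 800 bp or more numbered 9 of 104 (8.65%, against 5.41% of all), 3 each at Suz12 and Jarid2, 2 at Mtf2 and 1 at Eed. These differences were not tested, since regions are not replicates.

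Regions lay mostly away from starts. Of the 104, 66 lay inside the Polycomb gene, 25 in the upstream flank and 13 in the downstream flank. Per 10 kb, gene bodies held 1.31 regions and flanks 0.95, a direction that came from Jarid2 and Mtf2. The other 8 genes had 14 regions in their bodies (0.522 per 10 kb) and 20 in their flanks (0.625 per 10 kb). Flanks were denser than the body at 6 of the 9 genes with regions. Of these, Ezh1 and Bmi1 rest on 1 region each, and Ezh2 had 0.50 per 10 kb in its flanks against 0.46. The count was made for these genes only, with no share of coding genes beside it. Within 1 kb of an annotated start of the gene there were 2 of the 104 (1.92%), the Jarid2 promoter region and the strongest Mtf2 region. For the 37965 regions of the assembled chromosomes the share within 1 kb of any annotated start was 4.24%. Within 3 kb the shares were 10.6% and 9.97%. The number of starts differs between these shares, as the first counts starts of the 10 genes only.

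Agreement between the wild-type replicates at the Polycomb genes was near that of the lists. Replicate 2 recovered 106 of the 164 intervals of replicate 1, or 64.6% (57.1 to 71.5, Wilson 95% confidence interval), against 70.4% for the whole list. Replicate 1 recovered 106 of the 140 intervals of replicate 2, or 75.7% (68.0 to 82.1), against 79.3%. These intervals cover counting error only. Both list-wide shares lie within them. Intervals found in 1 list only were weak, with median fold enrichments of 4.15 and 4.02 from 6 fragments, against 7.25 and 6.84 for those found in both. Across the 104 regions, the fold enrichments of the replicates had a Spearman's rho of 0.842 and, on the log2 scale, a Pearson's r of 0.883. Over all 37997 regions these were 0.771 and 0.834. The points share their 2 libraries and are no independent samples, so no p-value is given. Between the replicates, 12 of the 104 regions differed by more than 1.5 times in fold enrichment, and 62 had the higher value in replicate 1. Neither count was set beside all consensus regions. With replicate 2 taken relative to replicate 1 on the log2 scale, the middle value was -0.051 for the 104 regions. For all 37997 regions it was -0.127. Higher values in replicate 1 were thus a trait of the lists, and the shift was smaller at the Polycomb genes, a difference that was not tested. The highest fold enrichment of a gene, which rests on 1 interval per list, was lower in replicate 2 at 8 of the 9 genes. The median log2 ratio was -0.29 (SD 0.23 over genes), and it was not computed for other genes. By the summit pileup this median ratio of the genes was -0.07 (SD 0.18) and 6 of the 9 were lower. By the −log10 q it was -0.42 (SD 0.32) and 7 of the 9 were lower. The size of the difference between replicates thus depended on the measure of strength, and its direction did not.

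**Figure D4:**
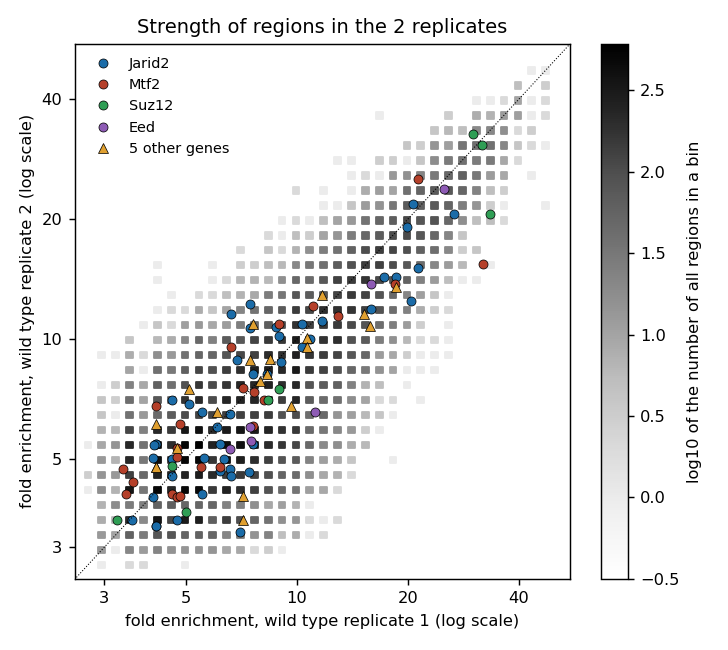
Fold enrichment in wild-type replicate 2 (y axis, log scale) against replicate 1 (x axis, log scale), with grey squares for bins of all consensus regions, circles for regions at Jarid2, Mtf2, Suz12 and Eed, triangles for those at 5 other Polycomb genes, and a dotted line of equal values. The regions at the Polycomb genes follow the line (rho 0.842), and the 3 strong Suz12 regions lie at its upper end, one of them at 33.4 in replicate 1 and 20.6 in replicate 2.

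Other genes of the pathway had a pooled density of 0.195 regions per 10 kb, below that of the 10 genes. Coding genes had 0.187. By single lists these other genes had 0.296 and 0.272 intervals per 10 kb, and coding genes 0.277 and 0.241. Auts2, with no region in the longest window, sets much of the value of 0.195. The other 29 genes had 0.28 regions per 10 kb, and 0.426 and 0.392 intervals by single lists. A list of 30 further genes covered other subunits of PRC2 (such as Rbbp4, Rbbp7 and Aebp2), other subunits of PRC1 (such as the Pcgf, Cbx and Phc genes, Rybp and Kdm2b) and the enzyme complex that removes ubiquitin from H2A (Bap1, Asxl1, Asxl2). A consensus region was present at 19 of the 30, against 51.1% of coding genes, and at least 5 at 7 of the 30, against 10.1%. With a fold enrichment of at least 10 required, 6 of the 30 had a region, against 19.9% of coding genes, a share close to theirs. Both knockout lists had 0 intervals at all 30. The median was 0.143 regions per 10 kb, with a range from 0 to 1.36, against a median of 0.0495 for coding genes. The densest were Rbbp7, a histone-binding subunit, with 1.36 per 10 kb (12 and 11 intervals in the wild-type lists), Asxl1 with 1.02 (16 and 12) and Rybp, a subunit of variant PRC1, with 0.81 (12 and 15). Mtf2 and Jarid2 lay above every gene of this list. Suz12 lay below Rbbp7 and Asxl1 by consensus regions, but its intervals per 10 kb (1.85 and 1.97) were above those of Asxl1 (1.63 and 1.22) in both lists and above the 1.87 of Rbbp7 in replicate 2.

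Of the 11 listed genes without a consensus region, 6 had no interval in either wild-type list. Phf1, Bap1 and Auts2 were among them. Auts2, a subunit gene of a PRC1 variant found in neurons, had none in a window of 1146 kb, the longest of the list. Phf1 encodes a subunit related to MTF2, whose gene had the highest density of the 10. The difference between the 10 genes and these 30 was not tested.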

How the data were processed

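Peak lists of 4 SALL4 CUT&RUN libraries were used, 2 per genotype, with groups and replicate numbers from the sample titles. Per the submitters' processing notes, Trim Galore 0.6.0, cutadapt 1.18, FastQC 0.11.8, BWA 0.7.17 and MACS2 2.1.1.20160309 were used with GRCm38 (mm10). Settings and the control of each list are not given in the sources used here. Each list was called by the authors on 1 library. Of the deposited values, the score restates the −log10 q-value as a whole number, the fold enrichment is the ratio of fragments at the summit to the local background, and −log10 p and −log10 q are those of that summit. All served only to rank, filter or describe intervals of the same list.

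Overlapping lines were merged and the summit with the highest fold enrichment was kept. Windows came from the RefSeq gene table of GRCm38.p6, in which all 10 members and all 30 further genes were matched, and annotated starts came from its promoter table. Coordinates are written from 1. Whole pileups and backgrounds were recovered from fold enrichment, with a pseudocount of 1, and a Poisson p-value, within 0.0001 in −log10 p. Counting, matching and recovery were tested on simulated data. The members and lists were chosen with earlier results of these data known.

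The text names all 10 members, the strongest region of each, every region within 1 kb of a start, and the 3 densest of the 30 further genes. Other regions and genes were named after their values were seen. Numbers of intervals were compared as log2(number + 1) by an exact permutation test. Python 3.11.15, numpy 2.4.6, scipy 1.17.1, pandas 2.3.3 and matplotlib 3.10.9 were used.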

Additional observations from a re-analysis of the deposited data

How the results depend on the processing

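The direction of the difference in intervals was fixed, since the knockout lists hold no autosomal interval. Its size on the log2 scale ran from 5.02 at a fold enrichment of at least 10 to 7.72 with flanks of 50 kb, and from 7.14 to 7.37 with a replicate left out. No exact test of these could pass 0.05. Treating equal replicate numbers as pairs (a replicate block) left the difference at 7.25, with an exact sign-flip p of 0.5, below which 2 pairs cannot go. Whether the numbers pair the libraries was not tested. The number of Polycomb genes with a consensus region, 9, was 7 in gene bodies alone (26.5% of coding genes) and 9 in the other 10 settings, in which the share of coding genes ran from 19.9% at the strict fold enrichment to 68.6% with flanks of 50 kb.

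The median density of 0.786 regions per 10 kb was 0.596 in gene bodies alone, 0.589 and 0.812 with flanks of 10 and 50 kb, 0.245 at a −log10 q of at least 10, 0.171 at a fold enrichment of at least 10, 0.419 at a −log10 p of at least 8, 0.685 with a reciprocal overlap of at least 50%, 0.542 with summits within 100 bp, and 0.961 to 0.978 with 1 wild-type replicate left out, where the median of coding genes was 0.123 and 0.153. The mean share recovered by the other replicate, 70.2%, was 81.7%, 84.5% and 80.7% at these 3 thresholds, 57.3% with the reciprocal overlap and 50.01% with the summits. Leaving out a replicate gives no value for it. Of the 30 further genes, 19 had a region, against 10 in gene bodies alone, 10 at the strict q-value and 6 at the strict fold enrichment, where 26.5%, 25.9% and 19.9% of coding genes had one. These settings accept fewer intervals by construction, except the wider flanks and the single lists. The counts of the 7 members with at least 5 regions stayed within 1.5 times in 38 of 77 recomputations. Weak intervals of 4 to 10 fragments limit what can be said of single regions.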
